A study of Canis lupus familiaris with 17 samples.

Results

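Ido2 (transcript XM_539961.3), which encodes indoleamine 2,3-dioxygenase 2, was followed across MDCK cells with and without silencing of the polarity gene scribble. It is 1 transcript of the 21571 that were measured, and its name is the one given by the study's first supplementary list. It was chosen from these data for its fall in scribble-silenced cells over control cells, so its values in that comparison are given as a description without a test.

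IDO2 is a haem enzyme that oxidises L-tryptophan to N-formylkynurenine, the entry step of the kynurenine pathway, which leads on to NAD. IDO1, its close relative, and the liver enzyme TDO2 catalyse the same step, and IDO2 is the less active of the IDO pair in most assays. Expression of IDO2 is known in liver, kidney and antigen-presenting cells, while IDO1 is the member best known for induction by interferon.

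MDCK-II cells are epithelial cells of an established dog kidney line, and Scribble is a scaffold protein that sets the apical and basal sides of epithelial cells. The scribKD line carries a short hairpin RNA that silences scribble when tetracycline (TET) is present. The 3 populations were scribKD cells without TET, which served as control, scribKD cells with TET, and scribRES cells with TET. All 3 derive from the hairpin line, and scribRES is a single isolate of it that withstands cell competition, so it stands for 1 isolate only. By the paper's methods, scribRES came from prolonged culture of the hairpin cells in TET, followed by growth without it. Such an earlier exposure is not described for the other populations, and its part in the scribRES values was not tested. Cells were plated at 1300000 per dish, 10 µg/ml TET was given to the +TET populations, and RNA was taken after 67 h. TET was absent from the control alone, so in both comparisons with control the drug cannot be told apart from the hairpin it induces. Experiments 1, 2 and 3 each hold 2 control and 2 scribKD libraries, and experiments 2 and 3 also hold 2 scribRES libraries, which gives 6, 6 and 4 libraries. Nothing in the labels says that the 2 libraries of an experiment came from separate cultures. A figure legend of the paper counts 3 biological replicates of scribKD cells without and with TET and 2 of scribRES, as many as the experiments. Its methods give at least 4 replicates per condition. On the legend's count the 2 libraries are repeats within an experiment. The p-values over libraries thus measure a spread that may be technical in part, and fits on experiment means are given at the end.

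Values are RPKM, the reads on a transcript divided by its length and by the number of reads in the library. Whole reads were recovered from the steps in which RPKM values move. Library runs held 12612664 to 29002702 reads on transcripts, and Ido2 was covered by 173 to 2530 reads per library over a length of 1631 bases. Counting alone thus gives Ido2 an error of 1.99% to 7.6% of its value per library. Reads of Ido2 and of a closely related sequence could have been shared, since the handling of reads that match several transcripts is not given in the sources used here.

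Mean RPKM of the targeted gene, Scrib (XM_003431819.1), was 28.9 ± 3.65 (SD) in the 6 control libraries, 12.9 ± 2.69 in the 6 of scribKD and 13.3 ± 1.23 in the 4 of scribRES. Every library of scribKD and of scribRES lay below every control library. Of the 16 kidney epithelial markers looked for, 7 had a named transcript, and those of Krt19, a keratin, and Ocln, a tight junction protein, were present in all 3 populations. Krt19 averaged 1469, 989 and 1188 RPKM in control, scribKD and scribRES, and Ocln averaged 33.5, 34.0 and 34.8. Cdh16, a cadherin on the same list, averaged only 3.14, 0.656 and 0.862 RPKM, with 0.0286 in the lowest scribRES library. The transcripts of 1 of 11 markers of immune and dendritic cells, 0 of 7 of mesenchyme and 0 of 5 of liver carried a name, so most markers of those cell types were not analysed here. The immune marker with a transcript, Cd74, a chaperone of MHC class II, had 489 to 1090 RPKM.

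Ido2 was present in every library. The control libraries of experiment 1 held 31.0 and 28.4 RPKM of Ido2, those of experiment 2 held 39.6 and 39.3, and those of experiment 3 held 48.4 and 49.9. The scribKD libraries held 5.56 and 6.61 RPKM (experiment 1), 9.38 and 9.13 (experiment 2), and 9.66 and 12.1 (experiment 3). The scribRES libraries held 8.38 and 8.41 RPKM (experiment 2), and 15.8 and 15.1 (experiment 3). The lowest control library was above the highest library of both +TET populations, whereas the ranges of scribKD and scribRES overlapped.

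**Figure D1:**
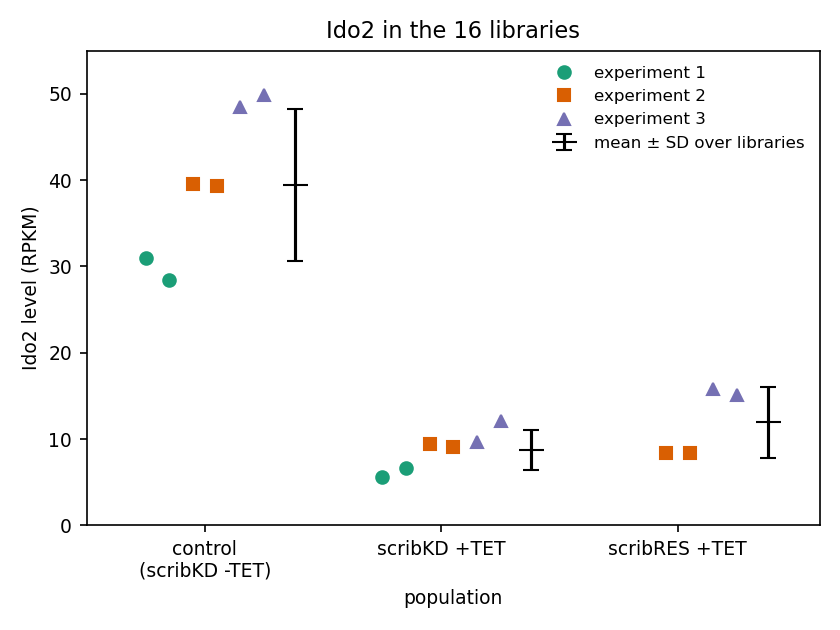
Level of Ido2 in RPKM (vertical axis, linear, from 0) in each of the 16 libraries, grouped by population, with colour and symbol marking the experiment and bars giving mean ± SD over libraries. All control points lie at or above 28.4 RPKM and all +TET points at or below 15.8, and within each population experiment 3 holds the highest point.

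By means over all libraries, the order of the levels was control, then scribRES, then scribKD. Within experiment 2 scribRES, at 8.40 RPKM, was below scribKD, at 9.26. Control libraries averaged 39.4 ± 8.75 RPKM (SD, n = 6), scribRES libraries 11.9 ± 4.10 (SD, n = 4) and scribKD libraries 8.74 ± 2.34 (SD, n = 6). The ranges of control and scribRES did not overlap, and those of scribRES and scribKD, the neighbours at the low end, did. Ranked against the other transcripts of its library, Ido2 stood above 77.6% to 86.8% of them in control cells, above 50.7% to 62.0% in scribKD cells and above 55.6% to 66.2% in scribRES cells. In RNA from whole cultures, fewer cells with the transcript and less transcript per cell cannot be told apart.

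In scribKD cells, Ido2 was at 22.2% of its mean control level, 4.51-fold lower. The log2 fold change over control, on the log2(RPKM + 0.1) scale, was -2.18 (standard error 0.19). Of the 9691 transcripts compared between these populations, this was the lowest fold change, which is the property for which Ido2 was chosen. The median over all of them was 0.02. With limma on all of these transcripts, 9.52% were called, meaning an adjusted p under 0.05 and a log2 fold change beyond 0.5 in either direction, and 5.27% were called lower.

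The fold was nearly the same size in each experiment although the level was not. Mean Ido2 in scribKD was 20.5% of control in experiment 1, 23.5% in experiment 2 and 22.1% in experiment 3. Fitted within single experiments, the log2 fold change was -2.27 (standard error 0.13), -2.08 (0.08) and -2.17 (0.11). In each experiment both scribKD libraries were below both control libraries.

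The level itself differed between experiments, in control and scribKD cells alike. Control means were 29.7, 39.5 and 49.2 RPKM in experiments 1, 2 and 3, and scribKD means were 6.08, 9.26 and 10.9. With population and experiment as terms of a limma fit on these 12 libraries, a comparison chosen after seeing the values, Ido2 was higher in experiment 2 than in experiment 1 by a log2 difference of 0.51 (standard error 0.08, adjusted p = 0.000443). Of all transcripts, 9.94% were called in that comparison and 5.08% were called higher. Experiment 3 exceeded experiment 1 by 0.78 (standard error 0.08, limma adjusted p = 1.77e-05), where 11.7% were called and 6.28% were called higher. Experiment 3 exceeded experiment 2 by 0.27 (standard error 0.08, limma adjusted p = 0.0123), which is under the fold limit of 0.5, and 20.0% of transcripts were called there.

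The 2 libraries of a population within an experiment lay close together. Over the 8 such pairs, the ratio of Ido2 RPKM in the second library to that in the first ran from 0.916 to 1.25. In 2 of the 8 pairs the exact 95% interval of the ratio, which covers counting error only, did not include 1: control in experiment 1 (0.916, from 0.855 to 0.981) and scribKD in experiment 3 (1.25, from 1.08 to 1.45). These 2 also kept an adjusted p under 0.05 over the 8 pairs by the exact test of the read numbers. A further pair, scribKD in experiment 1, had a ratio of 1.19 with an interval from 1.00 to 1.41 (exact p = 0.0463, adjusted 0.123).

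The scribRES isolate, which keeps scribble silenced, was also compared with control. The scribRES libraries took no part in the choice of Ido2, but the same 6 control libraries did, so this comparison too is given as a description, with no p. Ido2 in scribRES was at 30.3% of its mean control level, 3.30-fold lower. On the log2 scale this was a change of -1.75 (standard error 0.23), with all 4 scribRES libraries below all 6 control libraries. Of the 10324 transcripts compared, 3 had a lower fold change, and by limma 7.89% were called, 3.65% lower.

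Within experiments the fall from control to scribRES had unequal values, and the difference between them was not tested. In experiment 2 scribRES held 21.3% of the control level, a log2 fold change of -2.22 (standard error 0.08). In experiment 3 it held 31.5%, a log2 fold change of -1.66 (standard error 0.06). In both experiments the 2 scribRES libraries were below the 2 control libraries.

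Set against scribKD, Ido2 in scribRES was not called different. The scribKD libraries took part in the choice of Ido2 for its low level there, so the p-values of this comparison are not independent of that choice. Its mean was 137% of the scribKD mean, a log2 difference of 0.43 (standard error 0.25, 95% interval from -0.12 to 0.97, limma adjusted p = 0.339). Of 10342 transcripts tested, 1.46% were called. Permuting the libraries, in an exact two-sided test, gave p = 0.162. The interval takes in no change as well as a level near that of a doubling, so the 2 populations are not shown to hold equal amounts. The pooled comparison also sets 3 experiments of scribKD against 2 of scribRES, and experiment 1, which lacks scribRES, had the lowest Ido2. With experiment as a block the difference came to 0.19 on that scale (standard error 0.14, limma adjusted p = 0.299).

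The direction differed between the 2 experiments. In experiment 2 both scribRES libraries were below both scribKD libraries, with a mean of 90.7% of scribKD and a log2 fold change of -0.14 (standard error 0.08). In experiment 3 both were above them, with a mean of 142% and a log2 fold change of 0.51 (standard error 0.12). The difference between experiments, tested as an interaction chosen after seeing the data, was 0.65 (standard error 0.15, limma adjusted p = 0.00735). That test rests on 2 libraries per population in each experiment, which may be repeats. The scribKD libraries in it took part in the choice of Ido2, so its p is not independent of that choice. Such a difference was common among all transcripts, since 18.2% of 10501 were called in that test and 9.8% were called higher. Scrib moved the same way, with a log2 fold change of scribRES over scribKD of -0.40 in experiment 2 and 0.24 in experiment 3, and its part in the result for Ido2 was not tested.

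**Figure D2:**
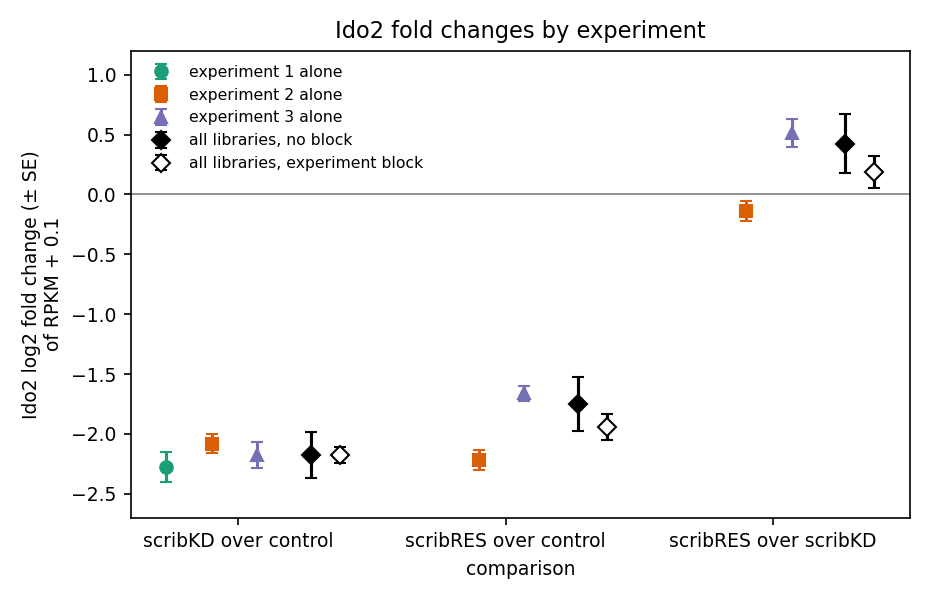
Log2 fold change of Ido2 (vertical axis, RPKM + 0.1) in the 3 comparisons, fitted in single experiments (coloured symbols) and over all libraries without a block (filled diamonds) or with experiment as a block (open diamonds), with bars of 1 standard error. In scribKD over control the single experiments lie between -2.27 and -2.08, and in scribRES over scribKD they lie on either side of 0.

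Scrib and Ido2 did not keep a fixed ratio across libraries. In control cells Scrib averaged 26.0, 32.7 and 28.0 RPKM in experiments 1, 2 and 3, being highest in experiment 2, while Ido2 was highest in experiment 3. In scribKD cells Scrib averaged 10.5, 16.2 and 12.1 RPKM, again highest in experiment 2. The fall of Scrib in scribKD over control was -1.17 on the log2 scale (standard error 0.13), against -2.18 for Ido2.

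The other genes of the kynurenine pathway, and those that supply, sense or use tryptophan, were looked for in 8 lists drawn up by function. Gene names were at hand for only 8.34% of transcripts, and 10 of the 99 symbols had one, Ido2 included. Most names come from a list of genes that the study called in scribKD against control, so the named set is enriched in changed genes. Of the named transcripts tested in scribKD over control, 46.1% were called, against 9.52% of all. Ido2 was the 1 member of the 15 in the tryptophan degradation list with a named transcript, and IDO1, TDO2, kynureninase and the other enzymes of the route were not analysed here. None of the 12 symbols of the list of other tryptophan use, which holds the tryptophanyl-tRNA ligases and serotonin synthesis, had a named transcript.

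Of the 9 other members with a transcript, 5 were tested in scribKD over control, and 1 was called higher and 0 lower. Of all transcripts, 4.25% were called higher there. Between scribRES and control 7 were tested, with 2 called higher and 0 lower, against 4.24% of all transcripts called higher. The share of named transcripts called was not worked out for scribRES over control, so these counts have no matched background. Between scribRES and scribKD 7 were tested and 0 were called by limma, with Eif2s1 alone under an adjusted or unadjusted p of 0.05, and 0.561% of all transcripts were called higher and 0.899% lower. The filter kept a transcript where every library of at least 1 of the 2 populations exceeded 5 RPKM and these libraries lay within 2-fold.

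Nqo1, a quinone reductase and a known target of the aryl hydrocarbon receptor, which binds kynurenine, was the member that rose in both comparisons with control. Its level was 491 to 659 RPKM in control (median 598), 568 to 1616 in scribKD (median 1096) and 864 to 1067 in scribRES (median 958). All scribRES libraries were above all control libraries, while the scribKD libraries of experiment 2, at 568 and 627, lay within the control range. It rose by 0.80 on the log2 scale in scribKD (standard error 0.23, limma adjusted p = 0.0247) and 0.73 in scribRES (standard error 0.12, limma adjusted p = 0.00305). The call in scribKD was lost on leaving out any 1 of control replicates 3 and 4 and scribKD replicates 1, 2 and 5, with an adjusted p from 0.0512 to 0.0580.

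Hmox1, which breaks down haem, the cofactor of IDO2, rose in scribRES over control by 0.62 on the log2 scale (standard error 0.11, limma adjusted p = 0.00540). Its level was 18.6 to 26.2 RPKM in control (median 24.2), 17.4 to 54.4 in scribKD (median 38.0) and 32.6 to 42.2 in scribRES (median 35.6). The scribRES libraries were all above control, and the scribKD libraries of experiment 2, at 17.4 and 17.7 RPKM, were below all of it. In scribKD over control Hmox1 was not called (log2 fold change 0.45, limma adjusted p = 0.236). With experiment as a block its limma adjusted p was 0.0319, at a fold still under the limit. Urod, an enzyme of haem synthesis, had 50.3, 68.3 and 64.4 RPKM in control, scribKD and scribRES, with a log2 fold change of 0.44 in scribKD (limma adjusted p = 0.00923) that stayed under the fold limit.

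Of the 7 symbols in the list of tryptophan transport, 2 had a named transcript, Slc7a8 and Slc7a6, and the rest were not analysed here. Neither of the 2 passed the filter in scribKD over control. Slc7a8, the light chain of the LAT2 transporter of large neutral amino acids, was not tested in any of the 3 comparisons, being under 5 RPKM in libraries of each population. It had 5.23, 6.85 and 24.2 RPKM in the controls of experiments 1, 2 and 3, against 1.61, 1.41 and 5.76 in scribKD, so scribKD was the lower in each experiment. In scribRES it had 1.79 RPKM in experiment 2 and 16.1 in experiment 3. Slc7a6, the light chain of the y+LAT2 exchanger of basic and neutral amino acids, had 16.3, 16.1 and 7.85 RPKM in control, 28.5, 36.3 and 16.7 in scribKD, and 23.0 and 13.7 in scribRES. Its log2 fold change in scribRES over control was 0.47 (limma adjusted p = 0.271) without a block, and 0.65 (limma adjusted p = 0.000925) with experiment as a block, where it was called. It was not tested in scribKD over control, since neither population lay within 2-fold. With RPKM above 1 as the only filter, both transporters were called in scribKD over control, Slc7a6 higher (log2 fold change 1.01, standard error 0.28, limma adjusted p = 0.0221) and Slc7a8 lower (-1.98, standard error 0.53, limma adjusted p = 0.0205). Without any filter both calls held (limma adjusted p = 0.0336 and 0.0326).

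Nmrk1, a kinase that makes NAD from nicotinamide riboside, had 14.8 ± 1.95, 18.7 ± 4.28 and 19.4 ± 3.01 RPKM (SD, n = 6, 6 and 4) in control, scribKD and scribRES and was not called in any comparison. With experiment as a block its log2 fold changes over control stayed under the fold limit. They were 0.31 in scribKD (limma adjusted p = 0.00189) and 0.44 in scribRES (limma adjusted p = 0.00126). Eif2s1, the translation factor subunit phosphorylated when amino acids run short, averaged 97.4, 121 and 87.1 RPKM. In scribKD over control its log2 fold change of 0.35 was under the fold limit. Its limma adjusted p there was 0.136, and 0.00525 with experiment as a block. Its log2 fold change in scribRES over scribKD was -0.47 (limma adjusted p = 0.0399), short of the fold limit, and -0.52 (limma adjusted p = 0.00145) with experiment as a block, where it was called lower. Ppp1r15a (GADD34), which directs the removal of that phosphate, had very different levels in the 3 experiments. It had 103, 28.1 and 167 RPKM in the controls of experiments 1, 2 and 3, 82.2, 18.4 and 93.0 in scribKD, and 96.8 and 108 in scribRES of experiments 2 and 3. From scribKD to scribRES it was called higher only with experiment as a block (log2 fold change 1.31, limma adjusted p = 0.0260). Ptgs2 (COX-2), grouped with regulators of the IDO genes, had 4.82 to 42.5 RPKM in control, 5.72 to 32.8 in scribKD and 4.06 to 10.5 in scribRES and was not tested.

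**Figure D3:**
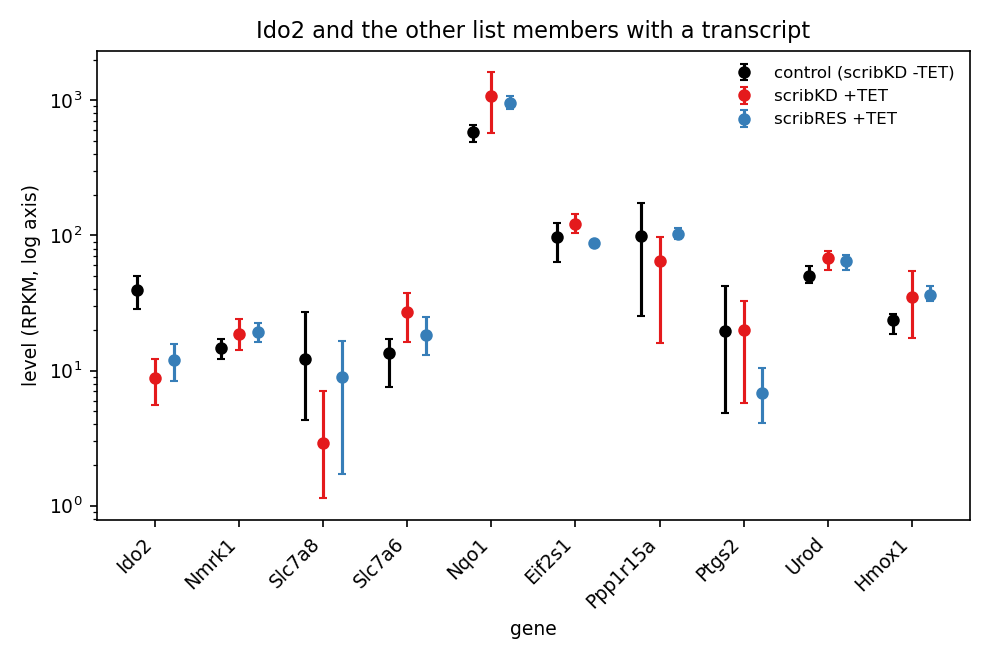
Level in RPKM (vertical axis, logarithmic) of Ido2 and the 9 other list members with a named transcript, as the mean (point) and the range over libraries (bar) in control (black, n = 6), scribKD (red, n = 6) and scribRES (blue, n = 4). The bars of control and of the +TET populations are apart for Ido2, whereas those of Slc7a8, Ppp1r15a and Ptgs2 span several-fold within control.

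Genes whose profile was most like that of Ido2 were sought among the 10448 transcripts that passed the filter in a comparison with control, of which 1320 had a name. Likeness was the root mean square difference of log2(RPKM + 0.1) over the 16 libraries after each transcript's own mean was subtracted. These genes were picked for resembling Ido2, so their folds are a description, and the libraries share populations and experiments. The 10 named genes closest to Ido2 were Chrm4 (0.30 log2 units), Pls1 (0.30), Gstt2 (0.33), Tspan33 (0.39), Cpt2 (0.45), Clic2 (0.45), Car2 (0.48), Zswim7 (0.50), Palm3 (0.50) and Sstr1 (0.51), against a median of 1.08 over all transcripts. A further 2 transcripts without a name came before the last of them, and Scrib itself stood 22nd with 0.54.

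The 2 closest encode a muscarinic acetylcholine receptor (Chrm4) and plastin 1, an actin-bundling protein of microvilli (Pls1). Chrm4 averaged 56.9 RPKM in control, 18.2 in scribKD and 22.6 in scribRES. Pls1 averaged 22.0, 6.98 and 9.08. These means pool 3 experiments of scribKD and 2 of scribRES. Within experiment 2 the mean of Chrm4 was 13.0 RPKM in scribRES and 19.6 in scribKD, and within experiment 3 it was 32.1 and 24.7, the same change of order as in Ido2. Pls1 had 6.84 against 6.89 in experiment 2 and 11.3 against 8.81 in experiment 3.

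Gstt2, a glutathione transferase, averaged 218, 74.7 and 70.6 RPKM in control, scribKD and scribRES. Its order changed likewise, with 47.7 RPKM in scribRES against 85.2 in scribKD in experiment 2, and 93.5 against 79.4 in experiment 3. Of the 11 genes, Ido2 included, scribRES had a lower mean than scribKD in 7 in experiment 2 and in 0 in experiment 3. The genes were picked for following Ido2 over these same libraries. An order shared with it, in Chrm4, Pls1 and Gstt2 too, is thus in part built in. Tspan33, a tetraspanin, averaged 44.7, 12.7 and 16.8, and Cpt2, the inner mitochondrial carnitine palmitoyltransferase, 48.1, 20.0 and 22.2. Car2, carbonic anhydrase 2, was the most abundant of the 10, with 768, 287 and 441 RPKM. The list depended on how experiments were treated, and 5 of the 10 genes were kept after each experiment's mean was subtracted.

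**Figure D4:**
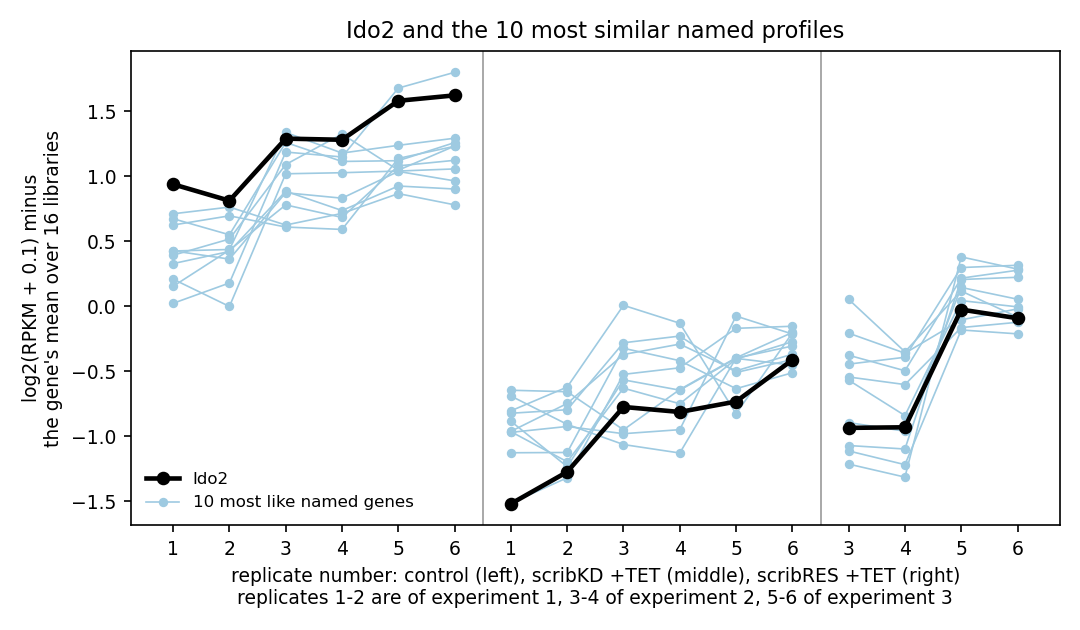
Log2(RPKM + 0.1) minus the gene's mean over the 16 libraries (vertical axis) for Ido2 (black) and the 10 named genes most like it (light blue), by replicate number within control (left), scribKD (middle) and scribRES (right); lines only join the points of 1 gene. Within each experiment the mean of every one of the 11 genes is higher in control than in scribKD or scribRES, although some control values of experiment 1 lie near the gene's mean, and Ido2 lies at the upper side of the group in control and at the lower side in experiment 1 of scribKD.

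In the order of genes of the reference gene table, which is of another dog assembly (UU_Cfam_GSD_1.0) than the reads were mapped to and was used for order only, IDO2 is followed by a gene without a symbol of its own and then by IDO1. None of the 10 genes directly around it, 5 on each side, had a named transcript, and they were not analysed here. The nearest named genes were Kat6a, a histone acetyltransferase 22 genes away, and Plat, the tissue plasminogen activator 27 genes away. Kat6a averaged 7.54, 4.39 and 6.64 RPKM in control, scribKD and scribRES, and Plat 4.68, 16.1 and 11.5, so they moved in opposite directions in scribKD.

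The 5 nearest named genes on each side reach up to 213 genes away. Of these 10, 7 were tested in scribKD over control, 3 were called lower (Kat6a, Paxip1 and Mtus1) and 1 higher (Plat). In scribRES over control 9 were tested, with Plat and Ppp1r3b called higher and 0 lower, against 4.24% of all transcripts called higher. No share of named transcripts called was worked out for that comparison. Between scribRES and scribKD 9 were tested and 0 were called, against 1.46% of all transcripts. Kat6a fell by 0.78 on the log2 scale in scribKD over control (standard error 0.13, limma adjusted p = 0.000938). Plat rose by 1.83 (standard error 0.22, limma adjusted p = 5.54e-05). The counts in scribKD over control stand beside 5.27% of all transcripts called lower and 4.25% higher, and beside 46.1% of named transcripts called in either direction.

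Among the kidney epithelial markers, 5 of the 7 with a named transcript were tested in scribKD over control, and 3 were called lower and 0 higher, where 5.27% of all transcripts were called lower. They were Krt19 (log2 fold change -0.57, limma adjusted p = 0.0243), Pax8, a transcription factor of the renal lineage (-0.73, adjusted p = 0.000198), and Muc1, an apical mucin (-0.56, adjusted p = 0.0363). In scribRES over control 5 were tested and 1, the tight junction protein Cldn1, was called lower (-0.76, limma adjusted p = 0.00575), where 3.65% of all transcripts were. The share among named transcripts was not worked out there. Summed over the 7 transcripts, the list ran from 1619 to 2474 RPKM in control, 1058 to 1545 in scribKD and 1245 to 1918 in scribRES. Krt19 is the largest part of that sum. With 0 of them at 0 in every library of a population, Cdh16 was the lowest and was not tested. Cldn2, a claudin of leaky tight junctions that was not tested, averaged 179, 43.4 and 86.8 RPKM in control, scribKD and scribRES. Its ranges over libraries were wide, at 66.6 to 296, 13.8 to 84.6 and 10.6 to 165 RPKM. Of named transcripts, 46.1% were called in scribKD over control in either direction. The proximal tubule marker Lrp2, 1 of 6 with a named transcript, averaged 2.95, 0.836 and 1.44 RPKM in control, scribKD and scribRES, and Scnn1a, 1 of 8 of the distal tubule and collecting duct, 6.95, 4.14 and 7.99. Over libraries Lrp2 ran from 0.77 to 4.81, 0.30 to 1.67 and 0.32 to 2.76 RPKM. Scnn1a ran from 3.08 to 14.0, 2.48 to 7.05 and 4.27 to 11.4, and neither was tested. These values moved beside that of Ido2, and their part in its level was not tested.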

How the data were processed

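RNA of 16 libraries, in 17 sequencing runs, was analysed as 1 transcript followed across 3 populations. The authors trimmed the reads (cutadapt 1.0 per the submitters' processing notes), mapped them with TopHat2 2.0.6 to the dog genome CanFam3.1, counted reads overlapping each transcript and deposited RPKM, with 21571 transcripts per run; they used EdgeR on counts, which were not used here. RPKM is relative to all reads of a library, so a few abundant transcripts can shift the others. Whole reads were recovered from the RPKM steps for 18873 transcripts (tolerance 0.02 reads), and 2698 were at 0 in every run. The 2 runs of control replicate 2 differed by about sampling noise (chi-square per transcript 1.12, against 26.0 between control replicates 1 and 2), were averaged and counted as 1 sample.

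Populations were compared by pairs in separate fits, using limma 3.58.1 in R 4.3.3 (lmFit, then eBayes with trend) on log2(RPKM + 0.1), two-sided, with Benjamini-Hochberg adjustment over all transcripts tested. A transcript was tested when every library of at least 1 population exceeded 5 RPKM and these lay within 2-fold, and called when its log2 fold change exceeded 0.5 in size at an adjusted p under 0.05. The pseudocount understates the folds of low transcripts. The fits were tested on simulated counts drawn independently for each library. These lacked the experiment differences of the real libraries, so that test does not give the error rates of the fits here. Python 3.11.15 was used elsewhere, with scipy 1.17.1, numpy 2.4.6 and pandas 2.3.3, and matplotlib 3.10.9 for plots.

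The gene, the lists and the tests were chosen with earlier results of these data known. Named are Ido2, Scrib, members of the tryptophan degradation list with a transcript, called members of the other lists (or the 2 of highest mean RPKM where fewer than 2 were called), the 10 named profiles most like Ido2, and up to 5 named genes on each side of it. Names for 1798 transcripts came from the study's first supplementary list (1388), where Ido2 is named, and from RefSeq (410). Fold changes in that list were not used. Of its names, 42 could be compared with a RefSeq symbol, and 8 of them differed. The second list, where 2 of 14 differed, was not used for names. The RefSeq table at hand does not list the Ido2 accession, so that name, like most of the others, was not checked.

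Pairing by experiment comes from the labels. Deviations from population means correlated at 0.73 on average between scribKD and control libraries of the same experiment with other numbers, 0.64 with the same number (lowest 0.29) and -0.34 across experiments. The other comparisons gave 0.43 and 0.39, 0.44 and 0.39 (lowest 0.14 in both), and -0.22 and -0.20. The blocked values are given where they change a call, and for some uncalled folds over control. Alternatives were other pseudocounts, filters, scaling, no trend, blocks, experiment means, experiments 2 and 3 only, all populations in 1 fit, either run of control replicate 2, limma-voom on recovered reads, and leaving out each replicate. Single-experiment fits, the experiment comparisons and the alternatives to the likeness measure were chosen after seeing the data. No sequence or genome position is given, since no genome of the build used was at hand.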

Additional observations from a re-analysis of the deposited data

Results flagged for a closer look

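Of the pathway transcripts, 8 could be tested for a difference between experiments 2 and 3 in the fold of scribRES over scribKD. Of these, 4 were called, with an adjusted p under 0.05 by limma and a difference beyond 0.5, where 18.2% of all transcripts tested were called. The 8 include Ido2, whose difference was seen before the test, and come from the named set, which is enriched in changed genes. For Ido2 the fold was -0.14 in experiment 2 and 0.51 in experiment 3, a difference of 0.65 on the log2 scale (standard error 0.15, limma adjusted p = 0.00735). For Nqo1 it was 0.83 and -0.59, a difference of -1.42 (standard error 0.22, limma adjusted p = 0.00130). For Ppp1r15a it was 2.40 and 0.21, a difference of -2.19 (standard error 0.16, limma adjusted p = 4.18e-05). For Hmox1 it was 0.95 and 0.03, a difference of -0.92 (standard error 0.13, limma adjusted p = 0.000822). Each experiment gave 2 libraries per population, and the cause was not tested. No library stood far from the rest of its group in the 63 groups of 4 to 6 libraries examined. Chance alone would mark about 1 in 20 if libraries were independent. The 2 libraries of an experiment tended to lie together, as for Ido2, so the absence of marks says little.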

How the results depend on the processing

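The fall of Ido2 in scribKD over control ran from -2.28 to -2.06 on the log2 scale over 29 alternatives, those leaving out replicates included. In scribRES over control it was -1.91 to -1.60 on leaving out replicates and -1.94 with experiment as a block. With experiment means, which leave 5 values, it was -1.75 (standard error 0.31). Calls of Ido2 in that comparison are not given, since the control libraries took part in its choice. Against scribKD, scribRES gave 0.27 to 0.57 on leaving out replicates, -0.14 in experiment 2 alone and 0.51 in experiment 3 alone, and planned adjusted p ran from 0.213 to 0.923. Neither the experiment nor the replicate number as a block led to a call of Ido2 in scribRES over scribKD. The block calls given above for Slc7a6, Eif2s1 and Ppp1r15a are the pathway calls that changed with experiment as a block. Pathway members called besides Ido2 in scribKD over control numbered 1, then 3 (RPKM above 1; Nqo1, Slc7a6 and Slc7a8), 2 (no filter; Slc7a6 and Slc7a8), 0 (experiment means; experiments 2 and 3 only) and 0 to 1 (leaving out replicates). In scribRES over control there were 2, then 0 with experiment means and 0 with all populations in 1 fit. In scribRES over scribKD there were 0, then 2 with experiment as a block, 1 with the replicate number as a block, 1 with experiments 2 and 3 only and 0 to 1 on leaving out replicates (Eif2s1, without scribKD replicate 1 or 6). Transcripts called numbered 923 in scribKD over control (157 with experiment means, 1611 at an unadjusted p under 0.05; 827 to 1029 on leaving out replicates). They numbered 815 in scribRES over control, 1513 with experiment as a block, 0 with experiment means (limma; 10.7% of those tested at an unadjusted p under 0.05) and 474 to 1026 on leaving out replicates, the lowest without scribRES replicates 3 (478) and 4 (474). Between scribRES and scribKD they numbered 151, 757 with experiment as a block, 404 with the replicate number as a block, 314 with experiments 2 and 3 only, 0 with experiment means (limma; 455 at an unadjusted p under 0.05) and 51 to 227 on leaving out replicates, lowest without scribRES replicate 5 and highest without scribKD replicate 1. The uncalled fold of Nqo1 in that comparison (-0.07) became 0.12 with either block or experiments 2 and 3 only, and ran from -0.23 (without scribKD replicate 3) to 0.068 (without replicate 5; 0.04 without 1). That of Nmrk1 (0.07) ran from -0.0005 without scribKD replicate 3 or 4 to 0.15 without replicate 6, and was -0.0002 without scribRES replicate 6. Of 466 alternatives for single pathway genes, 438 kept direction and call. Subtracting experiment means kept 5 of the 10 genes most like Ido2. Except where fewer values or a block enter the fit, the cause was not tested. Counting error of Ido2 was at most 7.6% per library, and scribRES was measured in 2 experiments only.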
